A study of Ailuropoda melanoleuca with 25 samples.

Results

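The comparison set the stage I libraries labelled day 24 against those labelled day 8 in the reprogramming of giant panda (Ailuropoda melanoleuca) cells, with 2 libraries at each day, chosen by sample title out of 25 libraries in the series. The study used episomal vectors, which are not meant to integrate into the genome, to turn panda cells into induced pluripotent stem cells (GPiPSC). All 4 stage I libraries carry primary fibroblast cells as their source, and the stage and day are the only treatment the labels record. The other groups used here were the primary fibroblasts (PF) labelled LB and XR, control and A83-01 libraries at day 16, stage II libraries at day 8, and GPiPSC labelled LB and XR. Each of these groups held 2 libraries, except LB GPiPSC with 3. The remaining 6 libraries, labelled BACL, took part in the fit. The labels do not say which fibroblast line the stage I cells came from, which medium they were in, or whether the replicates came from different dishes or animals. The p-values therefore speak to the scatter among these libraries, which may be technical.

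Reprogramming of fibroblasts is known to proceed in steps: cells first lose parts of the fibroblast programme and take on epithelial features, and the network of pluripotency genes is switched on later. TGF-beta signalling holds fibroblasts in a mesenchymal state. A83-01, the compound of the day 16 libraries, blocks the type I receptors of that pathway and is widely used in reprogramming media. In a bulk culture such as these, a smaller number of cells of a type and less RNA per cell cannot be told apart.

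The measured features were 22924 gene models, each a predicted coding sequence named by its scaffold and its order on it. None of the model names matched the RefSeq gene table of the panda, so none of the 100 symbols in 6 lists of pluripotency, fibroblast, epithelial and other genes could be tied to a model. The identity of the cells was therefore not checked against marker genes. The 4 libraries held 12840234 and 13870363 estimated counts at day 8 and 13299304 and 13338418 at day 24, within the 8627969 to 14890256 of the series, and 17225 models had enough counts to be tested. The mean coding length weighted by counts was 1505 and 1868 bases at day 24 and 1854 and 1930 at day 8. On this measure day 24 replicate 1 stood apart from the other 3, and the main counts are also given without it. Levels are given as CPM, the count of a model scaled to a common library size, after TMM scaling, which aligns the bulk of the models between libraries. The TMM factor was 0.71 and 1.05 at day 24 and 0.62 and 0.70 at day 8, so that here day 24 replicate 2 stood apart. The main counts are given without that library too.

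Between day 8 and day 24, 5599 of the 17225 models tested changed (32.5% of those tested; edgeR quasi-likelihood F test over all 25 libraries, adjusted p under 0.05). Of these, 3211 rose (18.6%) and 2388 fell (13.9%). The fitted folds of the called rises were also larger. The median log2 fold change was 2.08 among the models that rose and -1.61 among those that fell, against 0.15 over all models tested. The models that rose started lower, with a median log2 CPM at day 8 of 1.59, against 5.74 in those that fell and 3.32 over all tested. At low counts a larger fold is needed for a call, and the part of this in the fold sizes was not tested. A rise of more than 8-fold was fitted for 1074 models and a fall of more than 8-fold for 387. The fitted value of a model without a count at one of the days depends on the small count that the fit adds. With such models set at the lowest fold that 3 counts per library allow, 841 rose and 370 fell by more than 8-fold, and the medians were 1.86 and -1.61. This leaves out 15 called models whose day 24 mean was no higher than that bound.

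Nearly all of the called models had separate levels at the 2 days. They were called on these same libraries, which favours separate levels, so the values over called models are a description. Both day 24 libraries lay above both day 8 libraries in 3173 of the 3211 models that rose, and in 5400 of all models tested (31.3%). Both lay below in 2385 of the 2388 that fell, and in 4509 of all models (26.2%). In the 4 pairings of a day 24 with a day 8 library, the median difference in log2 CPM over the models that rose was 1.86 and 2.05 against day 8 replicate 1, and 1.79 and 1.90 against replicate 2, in the order of the day 24 replicates. Over the models that fell it was -1.66 and -1.63, and -1.64 and -1.59. Over all models tested it was 0.06 and 0.15, and 0.01 and 0.09. The fall was thus of much the same size with either day 24 library. The rise was larger with day 24 replicate 2, as was the median over all models.

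The number of calls rested on pooling the spread over all groups. A fit of the 4 stage I libraries alone called 2450 models, 1357 higher and 1093 lower. Leaving out day 8 replicate 1 gave 3708 calls, with 2022 higher and 1686 lower. Leaving out day 8 replicate 2 gave 3980, with 2244 higher and 1736 lower.

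**Figure D1:**
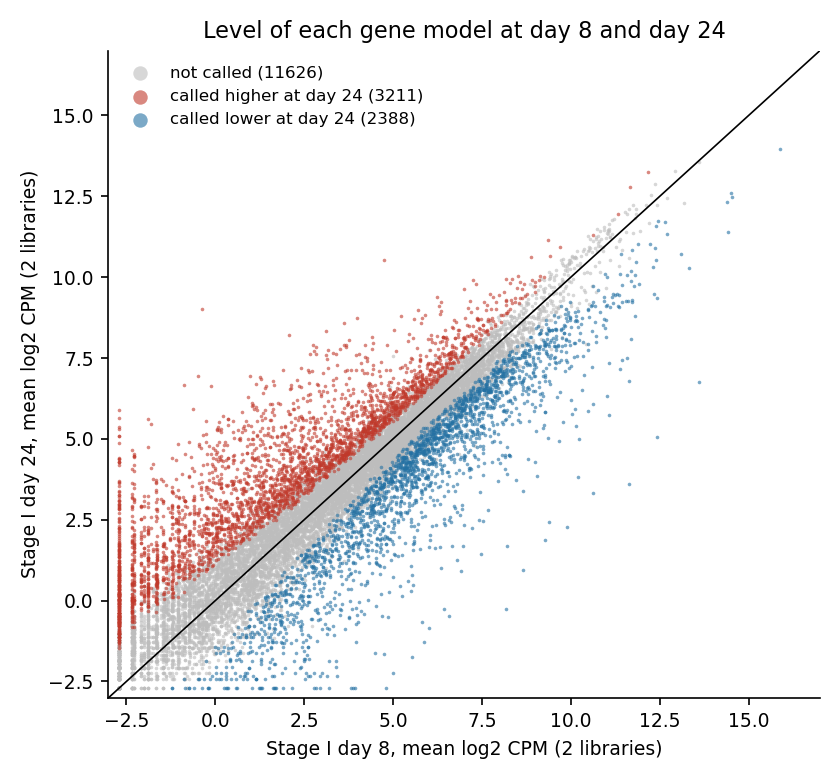
Mean log2 CPM of each of the 17225 gene models tested in the 2 day 8 libraries (x axis) and the 2 day 24 libraries (y axis), with models called higher in red, called lower in blue and the rest in grey; the line marks equal levels. The 3211 models called higher reach down to models without counts at day 8, and the most abundant model of all fell.

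The pool of RNA was spread over more models at day 24. Counts were found for 17432 and 17661 models at day 8 and for 18401 and 18910 at day 24. The 10 most abundant models held 13.6% and 13.2% of all counts at day 8 and 8.02% and 7.73% at day 24. The number of models that together held 50% of the counts was 293 and 330 at day 8 and 373 and 660 at day 24, so this measure separated the days but differed between the day 24 replicates as well.

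The same few models topped both day 8 libraries. There were 9 models among the 10 most abundant in both day 8 libraries. Of these, 7 fell and 0 rose, where 13.9% of all models tested fell and 18.6% rose. The day 8 libraries used for the choice also entered the call, which favours a fall. Chosen for their level at day 8, these 9 models held 13.1% and 12.5% of the counts there and 4.33% and 5.17% at day 24. In libraries that played no part in the choice, the share was 5.09% to 9.10% in the 4 fibroblast libraries, 10.3% and 10.4% in the day 16 controls, 6.31% and 7.34% with A83-01, 2.60% and 2.76% at stage II day 8, and 0.248% to 0.443% in the 5 GPiPSC libraries. Only 2 models were among the 10 most abundant in all 4 stage I libraries.

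The largest loss in mean CPM, which is scaled by TMM but not corrected for length, was in evm.model.HIC_ASM_13.784, a model with a coding length of 4329 bases. It stood at 64019 and 56444 CPM at day 8 and at 16026 and 15896 CPM at day 24. The days did not overlap, and the log2 fold change was -1.92 ± 0.45 (SE; n = 2 libraries a day; edgeR adjusted p = 0.00306). It had the most counts of any model in each stage I library. Without TMM scaling, it held 3.98% and 3.92% of all counts at day 8 and 1.14% and 1.66% at day 24. The XR fibroblasts held 38528 and 52768 CPM and the LB fibroblasts 20741 and 5849, while the GPiPSC libraries held between 0.0644 and 0.972. At day 16 it stood at 17059 and 16272 CPM in the controls and at 4174 and 4753 with A83-01 (log2 fold change -1.90 ± 0.45 SE, edgeR adjusted p = 0.0146).

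The second largest loss was in evm.model.HIC_ASM_16.328, with a coding length of 1986 bases. It fell from 23850 and 19944 CPM at day 8 to 2614 and 2761 at day 24, a log2 fold change of -3.03 ± 0.25 (SE; n = 2 libraries a day; edgeR adjusted p = 5.77e-08). Its day 8 level was above the 5564 to 7649 CPM of the 4 fibroblast libraries. The day 16 controls held 32646 and 34939 CPM and the A83-01 libraries 19338 and 26333, so both day 16 groups stayed near or above the day 8 level. Stage II day 8 held 996 and 1087 CPM, and the GPiPSC libraries 171 to 268.

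The largest gain was in evm.model.HIC_ASM_1.1793, with a coding length of 954 bases. It stood at 4764 and 4542 CPM at day 8 and at 13565 and 6894 at day 24. In fold, the day 24 replicates differed from each other almost as much as the days did. In CPM they differed by more than the day means, which were 4653 at day 8 and 10230 at day 24. The log2 fold change was 1.14 ± 0.32 (SE; n = 2 libraries a day; edgeR adjusted p = 0.0104). This call was lost without day 8 replicate 1 (edgeR adjusted p = 0.0563), without day 8 replicate 2 (0.0676), without day 24 replicate 1 (0.179, log2 fold change 0.57), and in the fit of the 4 stage I libraries alone (0.190). Against a 2-fold threshold the call was lost too (glmTreat adjusted p = 0.476). Stage II day 8 held 13062 and 15746 CPM, the day 16 groups 1094 to 1823, and the GPiPSC libraries 1925 to 4079.

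The second largest gain, in evm.model.HIC_ASM_1.498 (coding length 4356 bases), took a model that GPiPSC almost lack further from their level. It rose from 3187 and 3349 CPM at day 8 to 6105 and 8217 at day 24 (log2 fold change 1.13 ± 0.27 SE; n = 2 libraries a day; edgeR adjusted p = 0.003). In the fit of the 4 stage I libraries alone the adjusted p was 0.137. The fibroblast libraries held 3042 to 5691 CPM and the day 16 groups 6788 to 8417. Stage II day 8 held 457 and 428 CPM, and the 5 GPiPSC libraries held between 0.187 and 0.837. All 4 named models were abundant in the fibroblast libraries too, with 1876 CPM or more in each.

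**Figure D2:**
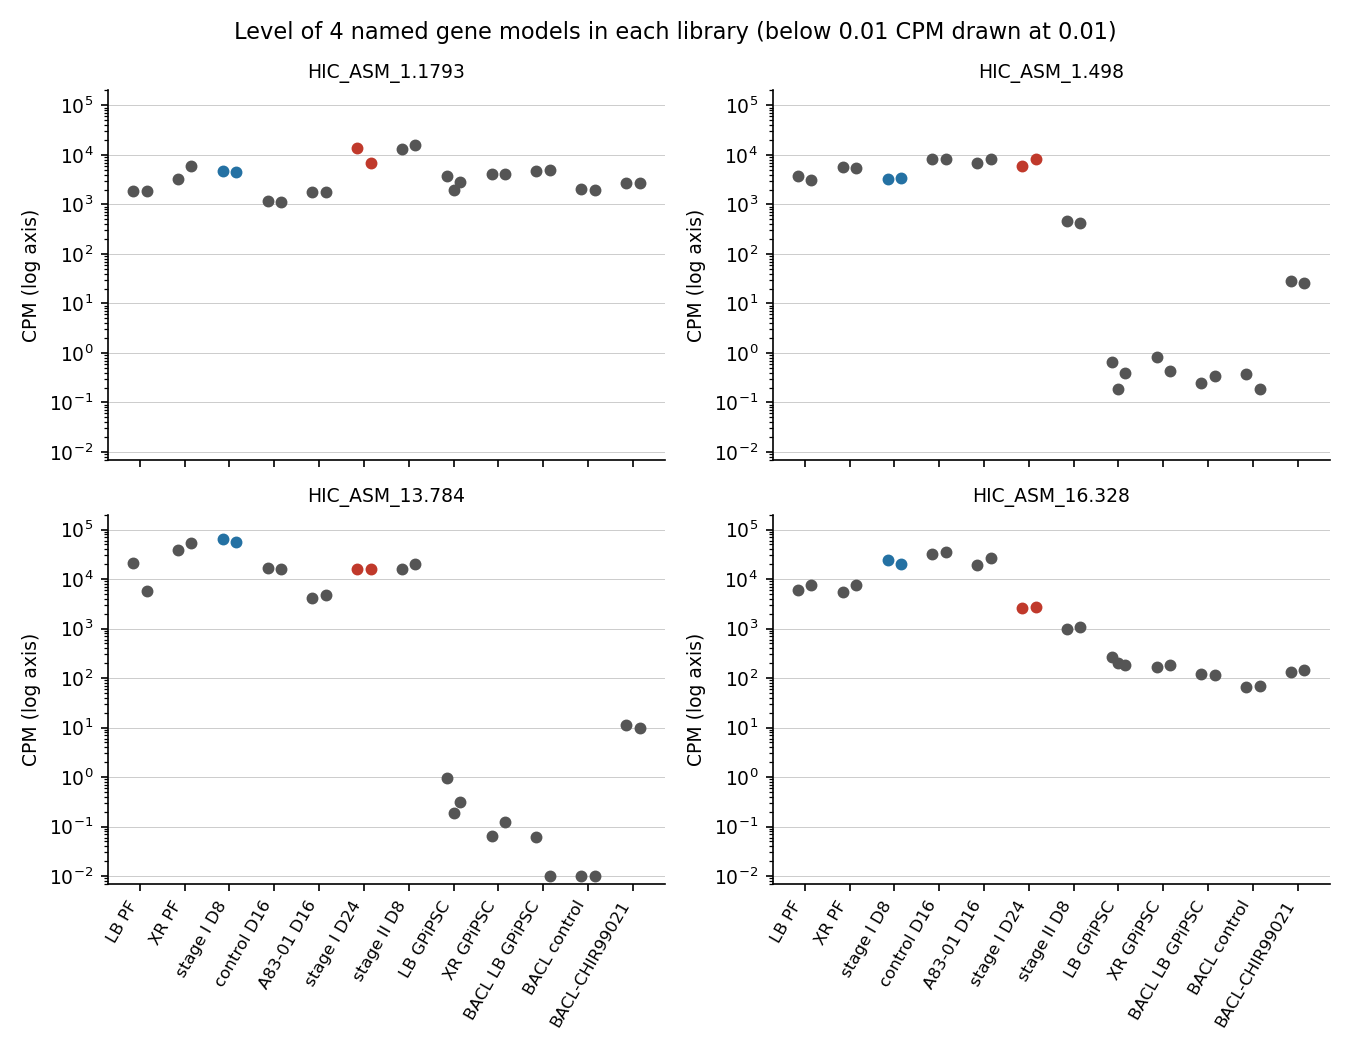
CPM on a log axis of the 4 gene models with the largest losses and gains in CPM, in each library of the 12 groups; day 8 is blue, day 24 red and the other groups grey. HIC_ASM_1.498 and HIC_ASM_13.784 hold 3187 CPM or more in each stage I library and lie under 1 CPM in the LB and XR GPiPSC libraries, whereas HIC_ASM_1.1793 keeps a high level in every group.

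Some models went from no count at all to a clear level. In 132 models both day 8 libraries had a count of 0, which allows up to 3 counts per library (0.376 and 0.311 CPM), and both day 24 libraries had at least 10. Of these, 127 passed the filter on low counts and the same 127 were called. Since they were picked by these counts, the calls are a description. Their median count was 26 and 35 in the day 24 libraries, and the highest was 736 and 716. The opposite pattern, at least 10 counts in both day 8 libraries and 0 in both at day 24, was found in 21 models, with a median of 27 and 28 counts at day 8.

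The libraries outside stage I show where the 132 models are otherwise found. At stage II day 8, 120 and 121 of them had counts, and 98 had counts in all 5 GPiPSC libraries. The shares of all models with counts in those libraries are not given here. In the single stage I libraries, 17432 to 18910 of all 22924 models had counts, so most models have counts in any library. The median over all 132 was 16 and 14 counts at stage II day 8 and 19 to 32 in the GPiPSC libraries. In the 4 fibroblast libraries the median was 0, only 18 to 38 of the models had any count, and 74 were at 0 in all 4. At day 16, 68 and 67 had counts in the controls (median 1 count in each) and 121 and 106 with A83-01 (medians 12.5 and 5). A further 12 models were at 0 in all 5 GPiPSC libraries, so that their counts at day 24 had no match in the established cells. Of the 21 models lost by day 24, 14 were at 0 in all GPiPSC libraries and 5 in all fibroblast libraries.

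The next question was whether the models that changed from day 8 to day 24 are those that differ between established GPiPSC and fibroblasts. The XR and LB comparisons of GPiPSC with PF share no library with the stage I comparison. XR GPiPSC had 4657 models higher (27.0%) and 4977 lower (28.9%) than XR PF, and LB GPiPSC had 4908 higher (28.5%) and 4974 lower (28.9%) than LB PF. Of the models higher in XR GPiPSC, 2085 rose between the days (44.8%, against 18.6% of all models) and 146 fell. Of those higher in LB GPiPSC, 2130 rose (43.4%) and 205 fell. Their median log2 fold changes between the days were 1.09 and 0.96, or 1.01 and 0.88 with models lacking counts at one day set at the bound.

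Models lower in GPiPSC moved the other way, by less. Among the models lower in XR GPiPSC, 1681 fell (33.8%, against 13.9% of all models) and 249 rose, and the median log2 fold change was -0.59. The LB comparison gave 1469 falls (29.5%) and 323 rises among its lower models, and a median of -0.47. These medians moved with single libraries: without day 24 replicate 2 they were -0.76 and -0.74, and the medians of the models higher in GPiPSC were then 0.76 and 0.77. Without day 24 replicate 1, 44.7% of the models higher in XR GPiPSC rose and 32.3% of those lower fell. With LB GPiPSC replicate 3 left out of the fit, LB GPiPSC had 4659 models higher, of which 43.2% rose, and 4712 lower, of which 32.8% fell.

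Taking the fibroblast lines together, 3418 models were higher and 3652 lower in GPiPSC of both. The former held 1797 of the models that rose between the days, 56.0% of all that rose, where the class itself was 19.8% of all models tested, and 106 of those that fell. The latter held 1328 of the models that fell, 55.6% of all that fell, where the class was 21.2% of all models tested, and 193 of those that rose. Among the 4893 models called in neither GPiPSC comparison, 436 rose (8.91%) and 341 fell (6.97%). In the 114 models that were called in opposite directions in the XR and LB comparisons, 22 rose (19.3%) and 20 fell (17.5%), near the shares of all models. Large parts of both GPiPSC classes were not called between the days: 1515 of the 3418 and 2131 of the 3652.

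The levels of these models were then read in the single libraries of the labelled stages. Each value here is the median over a set of models of log2 CPM minus the mean of the day 8 libraries, and the sets were chosen on the stage I libraries, so that the values at day 24 are a description. For the models that rose, day 24 stood at 1.83 and 2.00. The fibroblast libraries stood at 0.32 to 0.53 and the day 16 controls at 0.38 and 0.47. The A83-01 libraries stood at 1.33 and 1.00, stage II day 8 at 1.67 and 1.61, and the GPiPSC libraries between 1.98 and 2.12. Since these models were picked for a high level at day 24, the nearness of day 24 to GPiPSC in this set places no stage against another. The 1797 of them that were also higher in GPiPSC of both lines stood at 2.0 and 2.24 at day 24, at 2.24 and 2.11 at stage II day 8, and between 2.91 and 3.16 in GPiPSC, whose libraries entered that choice.

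For the models that fell, the order differed. Day 24 stood at -1.67 and -1.60, stage II day 8 at -1.68 and -1.67, and the GPiPSC libraries lower, between -2.73 and -2.60. The day 16 controls stood at -0.56 in both libraries and the A83-01 libraries at -1.02 and -0.87. The LB fibroblasts stood at -1.50 and -1.20 and the XR fibroblasts at -0.95 and -0.66. By median, the models that fell stood lower in every fibroblast library than at day 8. Since they were picked for a high level at day 8, this order places day 8 against no other group. Over all models tested, each of these groups stood between -0.08 and 0.20.

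**Figure D3:**
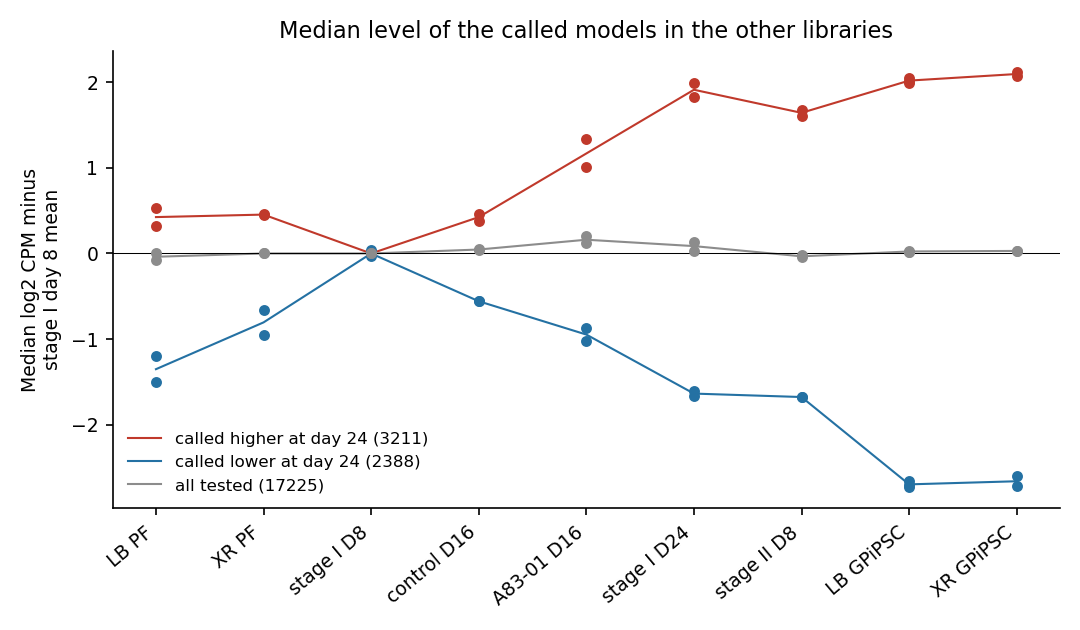
Median log2 CPM relative to the stage I day 8 mean (y axis) in each library of 9 groups (x axis; points are libraries, lines join group means) for models called higher, called lower and all tested. The sets were chosen on the stage I libraries. The red points lie at 1.83 and 2.00 at day 24 and between 1.98 and 2.12 in GPiPSC, and the blue points lie at -1.67 and -1.60 at day 24 but between -2.73 and -2.60 in GPiPSC.

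Model by model, these medians hide a wide spread. Of the 3211 models that rose, the day 24 libraries lay below all 5 GPiPSC libraries in 1344 (41.9%), within or across their range in 1133, and above all of them in 734 (22.9%). In 513 of the models that rose, day 24 lay above every GPiPSC and every fibroblast library, as it did in 1397 of all models tested (8.11%). The models were called for their day 24 level too, which favours such positions. Of the 2388 that fell, day 24 was still above all GPiPSC libraries in 1363 (57.1%) and below all of them in 257 (10.8%). Over all models tested, day 24 was above all GPiPSC libraries in 32.0% and below all in 28.7%.

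The starting level at day 8 was as mixed. In 1245 of the models that rose (38.8%) the day 8 libraries lay below all 4 fibroblast libraries, in 359 (11.2%) above all of them, and in 1607 they overlapped. In 1378 of the models that fell (57.7%) day 8 lay above all fibroblast libraries, in 100 below, and in 910 they overlapped. Over all models tested, day 8 lay above all fibroblast libraries in 24.3% and below all in 21.7%. These shares use the day 8 libraries that also entered the call, so that a model read low at day 8 is more readily called higher.

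A group of 193 models rose between the days although they were lower in GPiPSC than in PF of both lines. Relative to day 8 their median stood at 1.78 and 1.91 at day 24, at 1.36 to 1.76 in the fibroblast libraries, and at 0.44 and 0.62 in the day 16 controls. At stage II day 8 it stood at -0.57 and -0.68, and in GPiPSC between -2.03 and -1.70. The choice of these models sets their order between the days and their low level in GPiPSC against fibroblasts, so that these values are a description. The mirror set, 106 models that fell although higher in GPiPSC of both lines, stood at -3.96 to -3.05 in the fibroblasts and at -1.77 and -1.55 at day 24. It stood at -1.0 and -0.91 at stage II day 8 and between -0.80 and -0.40 in GPiPSC, likewise a description.

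The A83-01 comparison at day 16 also shares no library with the stage I comparison, and it asks whether the receptor inhibitor moves the same models. It called 721 models higher (4.19%) and 351 lower (2.04%) with A83-01. Of the 721, 609 rose from day 8 to day 24 (84.5%, against 18.6% of all models), 17 fell and 95 were not called. Of the 351, 253 fell (72.1%, against 13.9%), 10 rose and 88 were not called. Among the 16153 models not called with A83-01, 2592 rose and 2118 fell (13.1%).

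The sizes were large as well. The median log2 fold change between the days was 3.36 over the 721 models and -1.87 over the 351, or 3.04 and -1.83 with models lacking counts at one day set at the bound. It was 0.13 over the models not called with A83-01. In the 609 models called in both comparisons, the median was 3.74 between the days (3.39 at the bound) and 2.10 for A83-01 over control. By the fitted folds, without the bound, the change between days was the larger in 523. In the 253 models lower in both, the medians were -2.39 and -1.89. Across the 721 models the 2 fold changes had a Pearson r of 0.50, a description over models, which are not independent of each other.

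**Figure D4:**
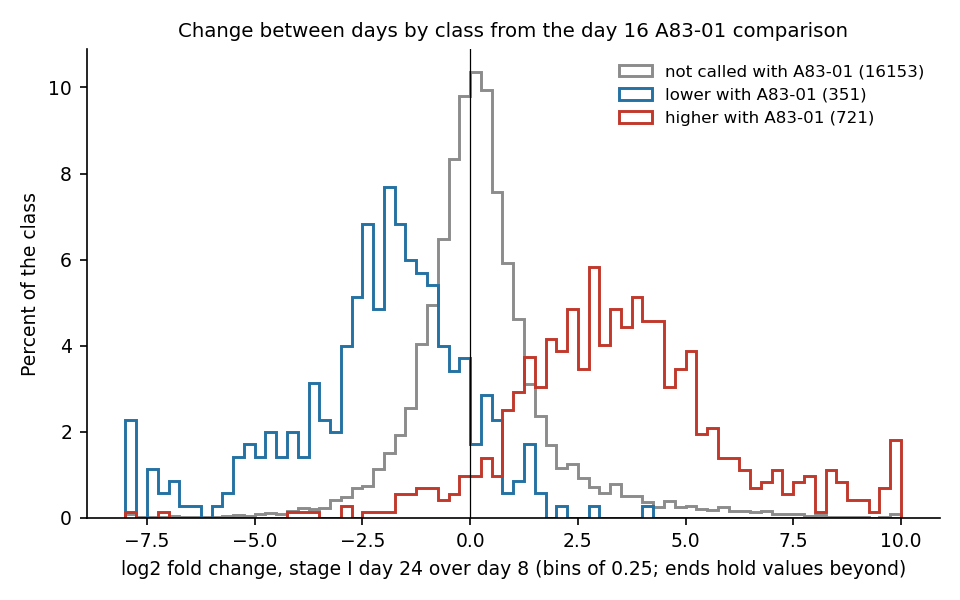
Distribution of the log2 fold change of day 24 over day 8 (x axis, bins of 0.25) as the percent of each class (y axis), for models called higher (red, 721), lower (blue, 351) or not called (grey, 16153) with A83-01 at day 16. The red class centres on 3.36 and the blue class on -1.87, with the grey class around 0.13.

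The A83-01 class took in only part of the change between the days. The 609 models were 19.0% of all that rose, and the 253 were 10.6% of all that fell. Among models fitted to rise more than 8-fold, 397 of 1074 were higher with A83-01 (37.0%) and 1 was lower. Among those fitted to fall more than 8-fold, 87 of 387 were lower with A83-01 (22.5%) and 3 were higher. Of the 535 models higher with A83-01 and higher in GPiPSC of both lines, 498 rose (93.1%). Of the 182 lower with A83-01 and lower in GPiPSC of both lines, 147 fell (80.8%).

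The levels of these classes were also read relative to day 8, with the limit that the classes were called on the day 16 control and A83-01 libraries, so that their values there are a description. Relative to day 8, the 721 models stood at 0.11 and 0.19 in the day 16 controls, at 2.51 and 1.97 with A83-01, at 2.88 and 3.0 at day 24, and between 3.28 and 3.43 in GPiPSC. The 351 models stood at -0.34 and -0.30 in the controls, at -2.16 and -2.06 with A83-01, at -1.94 and -1.77 at day 24, and between -4.16 and -4.05 in GPiPSC. As means over the libraries of a group, the 721 models stood at 0.09 in LB fibroblasts, 0.24 in XR fibroblasts and 3.21 at stage II day 8. The 351 models stood at -2.26, -1.07 and -1.73 in the same order. By median, the 351 models thus stood lower in every fibroblast library than at day 8. Whether they mark the fibroblast state was not tested. Whether the stage I cultures received A83-01 between day 8 and day 24 is not stated in the labels.

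The size of the A83-01 classes depended on each of its 4 libraries. The models higher with A83-01 numbered 231 without A83-01 replicate 1, 640 without A83-01 replicate 2, 241 without control replicate 1 and 184 without control replicate 2. Of these, 194 (84.0%), 583 (91.1%), 224 (92.9%) and 170 (92.4%) rose between the days. The models lower with A83-01 numbered 142, 148, 139 and 118 in the same order, of which 95 (66.9%), 112 (75.7%), 106 (76.3%) and 89 (75.4%) fell. The share that moved with the days therefore stayed far above that of all models while the number of models changed. Where the stage I libraries were left out in turn, 76.6% to 82.8% of the 721 rose and 62.4% to 68.7% of the 351 fell.

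Coding length, and the mean level over the libraries outside stage I day 8 and day 24, separated the called models from the rest only weakly. The median coding length was 1308 bases in models that rose, 1266 in those that fell and 1171 over all tested. In 5 classes of near equal size by coding length, from the shortest to the longest, 13.9%, 17.6%, 19.0%, 21.9% and 20.8% rose and 10.6%, 13.3%, 14.9%, 14.9% and 15.6% fell. In 5 such classes by the mean level in the 21 libraries outside stage I day 8 and day 24, between 16.5% and 20.0% rose and between 12.4% and 15.8% fell. That mean joins unlike groups, in which the levels did differ. In the LB fibroblasts the median log2 CPM was 2.68 in models that rose, 4.55 in those that fell and 3.61 over all tested. In LB GPiPSC it was 4.26, 2.75 and 3.47. On the 21 large scaffolds, which held 17068 of the models tested, the median log2 fold change ran from -0.04 on HIC_ASM_16, with 1346 models, to 0.33 on HIC_ASM_6, with 869. Against the day 8 mean, the medians in day 24 replicates 1 and 2 were 0.007 and -0.17 on HIC_ASM_16, and 0.15 and 0.40 on HIC_ASM_6. In replicate 1 the range ran from -0.05 on HIC_ASM_11 to 0.20 on HIC_ASM_20, so the order of scaffolds differed between the replicates. On HIC_ASM_6, 217 models rose (25.0%) and 107 fell (12.3%). On HIC_ASM_16, 194 rose (14.4%) and 216 fell (16%), against 18.6% and 13.9% of all models.

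The day 24 replicates were less alike than the day 8 replicates. Across models, log2 CPM of the replicates had a Pearson r of 0.950 at day 24 and 0.981 at day 8. The replicates differed by more than 2-fold in 5454 models at day 24 (31.7%) and in 1934 at day 8 (11.2%). Among the models that rose, 835 differed that much between the day 24 replicates (26.0%), and among those that fell, 473 (19.8%).

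The difference between day 24 replicates followed coding length and also varied with level. The median of log2 CPM in replicate 2 minus replicate 1 was -0.13, -0.15, -0.01, 0.16 and 0.42 over the same 5 classes from the shortest to the longest, against -0.06, -0.05, 0.00, 0.01 and 0.14 at day 8. Over the 5 classes by level, from the lowest to the highest, it was 0.01, 0.21, 0.28, 0.12 and -0.27 at day 24. The part of this difference in the calls was not tested beyond leaving out each library. Without day 24 replicate 1, 3252 models rose and 2293 fell. Without day 24 replicate 2, 2595 rose and 2500 fell, and the median log2 fold change over all models was -0.06 in place of 0.15.

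**Figure D5:**
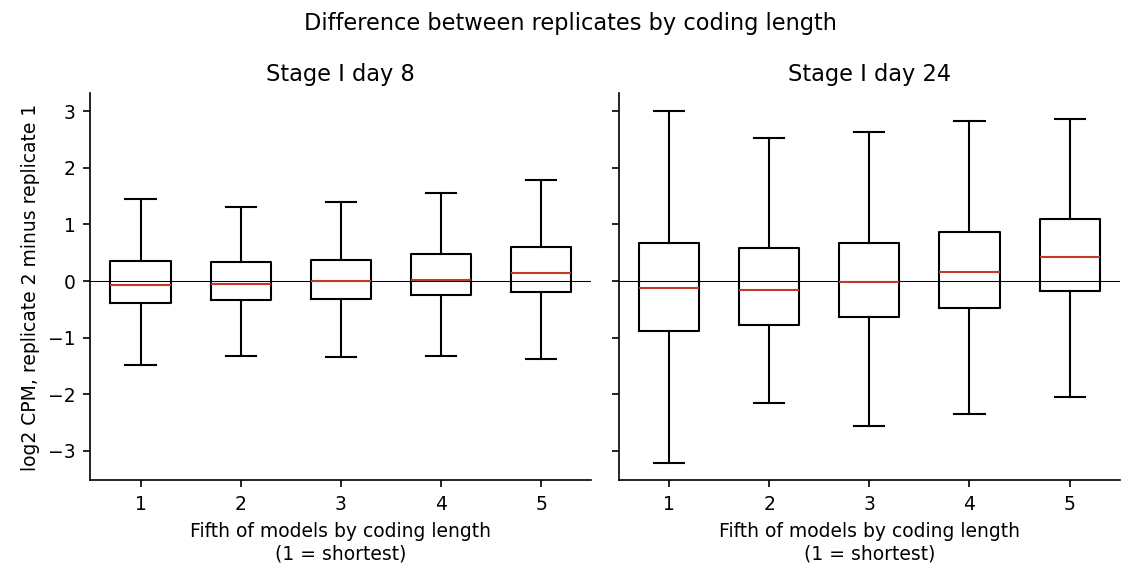
Difference in log2 CPM between replicate 2 and replicate 1 (y axis) at day 8 and day 24, for models in 5 classes by coding length (x axis); boxes span the quartiles with the median in red, and whiskers reach the last model within 1.5 box lengths. The median climbs from -0.13 to 0.42 at day 24 and from -0.06 to 0.14 at day 8.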

How the data were processed

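Total RNA was sequenced, per the labels, from NEBNext Ultra libraries. The authors deposited 1 table per library with estimated counts and TPM per gene model, per the file headers. kallisto is named in the submitters' processing notes. Its version and index, like the assembly, are not given in the sources used. Of all model lengths, 91.6% are multiples of 3, so lengths are called coding lengths.

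Estimated counts were rounded. Models passing filterByExpr by group (17225) were fitted in edgeR 4.0.16 (R 4.3.3) with TMM factors and robust quasi-likelihood F tests over 25 libraries in 12 groups, which left 13 residual degrees of freedom, with Benjamini-Hochberg adjustment over all models tested and calls at 0.05. Log2 CPM used a prior count of 2. The SE of a log2 fold change is its absolute value over the square root of F. It rests on the fit of all 25 libraries, not on the spread of the 2 libraries a day alone. Alternatives used DESeq2 1.42.0, limma 3.58.1 on log2(TPM + 1) and log2(TPM + 0.1), other scaling, filters, length offsets, glmTreat and left-out libraries. Depth was 8627969 to 14890256 counts per library, and floors cover counting error only. Named models are the 2 with the largest gain and the 2 with the largest loss in mean CPM among called models with no overlap between days and more than 3 counts in each of the 4 libraries. The comparison and the lists were chosen with earlier results of these data known. Reads of near-identical models may be split by the counting: 5.90% of the models tested had estimated counts that were not whole in a stage I library.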

Additional observations from a re-analysis of the deposited data

How the results depend on the processing

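The number of models called (5599) stayed within 1.5 times under RLE size factors (5543), no filter on low counts (5326), effective-length offsets (5494), DESeq2 (5804) and limma on log2(TPM + 1) (4686) and log2(TPM + 0.1) (4829). It was 2450 (1357 higher, 1093 lower) in the fit of the 4 stage I libraries, which has fewer degrees of freedom, and 2445 (1520 higher, 925 lower) against a 2-fold threshold with glmTreat, which asks for more than a difference. Leaving out single libraries gave 3708 to 5752 calls, with 2022 to 3252 higher; a day with 1 library left was assumed to vary like the other groups, and the day 16 and LB GPiPSC libraries were left out by choice after seeing the data. Over all models tested, the median log2 fold change was then -0.0579 without day 24 replicate 2, the reverse of the 0.15 in the fit of all libraries, and 0.22 at most. A replicate block, a term shared by replicate 2 of both days, gave 6123 calls (3392 higher, 2731 lower). The labels give these replicates only a shared number; the differences between replicates at day 24 and day 8 had a correlation of 0.56 across models. The calls of evm.model.HIC_ASM_13.784 and evm.model.HIC_ASM_16.328 held under every alternative run, and that of evm.model.HIC_ASM_1.498 was lost in the fit of the 4 libraries and with glmTreat. The causes of the other differences were not tested. Without a count, levels up to 0.376 CPM at day 8 and 0.316 CPM at day 24 could go undetected.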
